A study of Mus musculus with 16 samples.

Results

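Transcripts of the Nduf genes, which are named for the subunits and assembly factors of respiratory complex I, were measured by bulk RNA sequencing in whole dissected mouse hearts. The members were all rows of the count table whose symbol begins with Nduf, 51 of 18346 genes, and comprised 43 subunit-named genes and 8 assembly factors (Ndufaf). The hearts came from 4 groups of 4 mice: systemic Armh4 knockout mice at 25 months (KO_Aged), wild-type C57BL/6J mice at 25 months (WT_Aged), knockout mice at 8 weeks (KO_Young) and wild-type mice at 8 weeks (WT_Young). The knockout was described as systemic, so no cell type was singled out, all groups received normal food, and no further allele or treatment was named. The 4 hearts of a group came from separate mice, and each is referred to by group and animal number.

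Complex I is the entry point of electrons from NADH into the mitochondrial respiratory chain. It passes them to ubiquinone and pumps protons across the inner membrane, and in the heart it serves the continuous demand for ATP. Its peripheral arm consists of the N module, which oxidises NADH, and the Q module, which reduces ubiquinone. Its membrane arm has a proximal part and a distal part, and assembly factors build the enzyme without remaining in it. The membrane arm also contains subunits encoded by mitochondrial DNA, which were not analysed here.

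Of the 51 members, 48 passed the filter on low counts, 40 of them subunit-named and all 8 assembly factors. By textbook assignment the N module had 8 members, the Q module 8 and the proximal membrane arm 9. The distal membrane arm was taken by name, as all genes named Ndufb followed by a digit, with the copies Ndufb4b and Ndufb4c. It had 13 members, of which 12 were tested. Ndufab1 encodes the mitochondrial acyl carrier protein. Ndufa4, now placed in complex IV, and its paralogue Ndufa4l2 are subunit-named but lie outside complex I. The 3 untested members were Ndufb4b with 36 counts, Ndufs6b with 60 counts and Ndufab1-ps with 6.61 counts, each summed over the 16 hearts.

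The knockout label held in every heart. Armh4 stood at 0.889 to 1.68 CPM (counts scaled to library size) in KO_Aged hearts and at 15.9 to 20.3 CPM in WT_Aged hearts. It stood at 0.0825 to 0.50 CPM in KO_Young hearts and at 12.7 to 17.7 CPM in WT_Young hearts. Total counts were 11456503 to 13298660 per heart. All 10 ventricular cardiomyocyte markers of the list were tested, whereas none of the 5 adipocyte markers was.

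Upstream sequences were read for Ndufv1, the member that passed the test, and for Ndufb4, which has near-identical copies. Ndufaf4 and Ndufa10, which separated groups heart by heart, were read as well. Ndufaf1 and Ndufaf2 also separated groups but are not printed. Of all tested genes 4.43% were lower without overlap in KO_Young than in WT_Young hearts, and 6.97% in KO_Aged than in KO_Young hearts. The sequences are the 150 bases before the annotated start in RefSeq (build GRCm38.p6, not the build of the counts), printed on the strand of the gene. Capitals mark a match, on either strand, to a motif searched for. The Ndufv1 stretch is chr19:4012756-4012905 on the minus strand, the Ndufaf4 stretch chr4:24897933-24898082 on the plus strand, the Ndufa10 stretch chr1:92473759-92473908 on the minus strand and the Ndufb4 stretch chr16:37654369-37654518 on the minus strand.
Ndufv1: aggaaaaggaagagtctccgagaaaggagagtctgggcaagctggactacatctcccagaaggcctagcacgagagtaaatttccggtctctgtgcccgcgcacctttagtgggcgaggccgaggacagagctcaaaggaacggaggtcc
Ndufaf4: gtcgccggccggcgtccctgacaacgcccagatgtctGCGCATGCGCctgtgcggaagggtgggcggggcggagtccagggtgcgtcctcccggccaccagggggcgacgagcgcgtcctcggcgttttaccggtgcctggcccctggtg
Ndufa10: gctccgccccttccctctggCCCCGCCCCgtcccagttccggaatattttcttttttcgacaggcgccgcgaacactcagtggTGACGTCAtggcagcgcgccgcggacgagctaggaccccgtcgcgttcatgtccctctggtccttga
Ndufb4: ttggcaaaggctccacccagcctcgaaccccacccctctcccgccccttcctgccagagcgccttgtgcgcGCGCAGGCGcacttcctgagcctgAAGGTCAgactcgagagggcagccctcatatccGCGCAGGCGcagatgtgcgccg

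The Ndufv1 stretch held none of the 6 motifs. Ndufaf4 held the NRF1 motif GCGCANGCG (N, any base) on both strands, in overlapping matches that begin at -113 and -112 from the start. Ndufb4 held it at -79 and at -22, with an ERR motif AAGGTCA between them. Ndufa10 held the CREB motif TGACGTCA at -67 and the SP1 motif GGGGCGGGG, read on the opposite strand, at -130. Over 250 upstream bases, the NRF1 motif was found in 7 of the 42 members with a promoter entry (16.7%), against 5.16% of all 32851 entries. Those 7 were Ndufa5, Ndufa8, Ndufa11, Ndufaf4, Ndufb4, Ndufs5 and Ndufs6. The CREB motif was found in 3 members (7.14%) against 1.55% of all entries, the ERR motif in 3 (7.14%) against 4.08%, and the SP1 motif in 5 (11.9%) against 10.4%. The YY1 motif AAGATGGCG and the ETS motif ACTTCCGG were found in 0 members, against 0.606% and 2.88% of all entries. Members were counted once per gene, over 44 entries, whereas the background was counted per entry and was not limited to the genes tested here. A match describes letters in the sequence and not binding of a factor.

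Subunit transcripts were abundant and assembly factor transcripts were far scarcer. On the FPKM scale (fragments scaled to gene length and library size) the 8 assembly factors had mean levels of 17.5 to 94.6 over the 16 hearts, with a median of 25. The 30 accessory subunits, with Ndufab1 and without the copy Ndufb4c, ranged over 84 to 2130 FPKM with a median of 772. The 7 nuclear-encoded catalytic core subunits had a median of 617 FPKM. By module the median level was 470 FPKM in the N module, 680 in the Q module, 775 in the proximal membrane arm and 718 in the distal membrane arm.

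**Figure D1:**
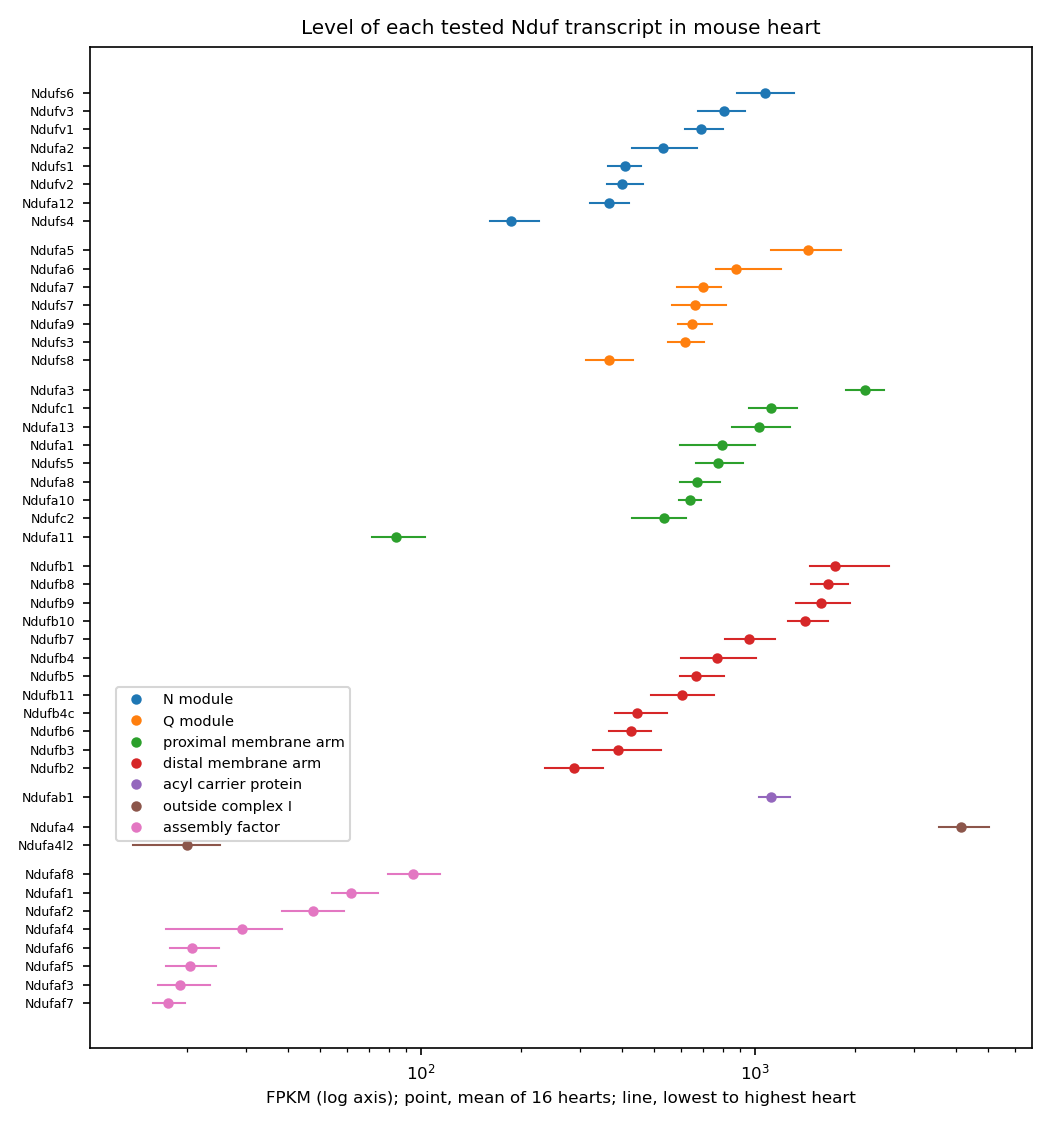
Level of tested members on a log axis in FPKM, with the mean of 16 hearts as a point and the lowest to highest heart as a line, coloured by module. The assembly factors lie between 17.5 and 94.6 FPKM, and Ndufa4 is highest at 4150 FPKM.

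Ndufa4 had the highest mean level, 4150 FPKM, and was followed by Ndufa3, an accessory subunit of the proximal arm, at 2130 FPKM. Ndufb1 and Ndufb8 of the distal arm followed at 1740 and 1650 FPKM. The FPKM ranges of the last 2 over the 16 hearts overlapped, 1460 to 2520 for Ndufb1 and 1470 to 1900 for Ndufb8, so that order lay within their spread. Ndufa4 ranged over 3570 to 5030 FPKM and did not overlap any other member. Ndufa4l2, which is linked to hypoxia in other settings, stood at 19.9 FPKM. At the low end Ndufaf7, a methyltransferase that acts during assembly, had 17.5 FPKM and Ndufaf3, which works in assembly of the Q module, had 19 FPKM, with overlapping ranges of 15.8 to 19.6 and 16.3 to 23.4 FPKM. Ndufa11 stood lowest among the complex I subunits at 84 FPKM although it had 201 CPM. The length implied by its counts and FPKM was at percentile 42.2 of all tested genes, and the transcript behind that length was not stated in the sources used here. Implied lengths were at percentiles 0.0673 for Ndufa3 and 0.0523 for Ndufb1, which had 200 and 145 CPM. Ndufs1 and Ndufv1, at 409 and 690 FPKM, had 997 and 928 CPM, so the order of members depends on the length scaling.

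Aged knockout hearts had complex I transcripts at about the level of aged wild-type hearts. None of the 40 tested subunit-named genes and none of the 8 assembly factors passed the test between KO_Aged and WT_Aged hearts, where 1.11% of all 13373 tested genes did (edgeR's quasi-likelihood test, Benjamini-Hochberg adjusted p under 0.05). At an unadjusted p under 0.05 the count was also 0 of 40 and 0 of 8, against 11.0% of all genes, and DESeq2 and limma on FPKM also called 0. Log2 fold changes of subunits were above 0 in 20 (51.1% of all genes) and below 0 in 20, with a median of 0.00, as for all genes (0.00). The split moved with single hearts: it was 8 above and 32 below without WT_Aged_12 (median -0.07) and 31 above and 9 below without WT_Aged_1 (median 0.05). With the short-transcript score (the level of other short genes in a heart) as a covariate it was 28 above and 12 below (median 0.04). The 95% intervals of 47 of the 48 members lay within 0.5 of 0 on the log2 scale. The exception was Ndufa4l2, with an interval of -0.18 to 0.51. No member separated all KO_Aged from all WT_Aged hearts, whereas 5.04% of all genes did. In bulk tissue, fewer cells of a type and less RNA per cell cannot be told apart, so these are levels relative to all RNA of the heart.

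The member with the smallest p in aged hearts was Ndufb4, an accessory subunit of the distal arm. Its level was 124, 151, 131 and 150 CPM in KO_Aged_114, KO_Aged_115, KO_Aged_122 and KO_Aged_125, against 184, 137, 174 and 146 CPM in WT_Aged hearts 1, 4, 5 and 12. The groups overlapped, and the log2 fold change was -0.20 ± 0.13 (SE; edgeR adjusted p = 0.597). Its near-identical copy Ndufb4c had 109, 96.3, 91.4 and 108 CPM in KO_Aged hearts and 94.2, 107, 91.4 and 84.5 CPM in WT_Aged hearts (same heart order), a log2 fold change of 0.10 ± 0.09 with adjusted p = 0.759. Counts of both genes were fractional in all 16 libraries, so the split of reads between them is uncertain. Among the other members Ndufb11 had fractional counts in 14 libraries. The sum of Ndufb4, Ndufb4b and Ndufb4c was 240 ± 15.6 CPM in KO_Aged hearts and 255 ± 21.5 CPM in WT_Aged hearts (SD, n = 4 each). Its log2 fold change was -0.08 ± 0.09 (adjusted p = 0.818), and Ndufb4c made up 42.1% ± 3.29 of it in KO_Aged hearts and 37.1% ± 4.58 in WT_Aged hearts. Ndufs4, an accessory subunit that stabilises the N module, had 199, 231, 227 and 226 CPM in KO_Aged hearts and 276, 220, 240 and 208 CPM in WT_Aged hearts. These overlapped as well, with a log2 fold change of -0.10 ± 0.09 (edgeR adjusted p = 0.768) that was -0.03 without WT_Aged_1 and -0.15 without WT_Aged_12. Markers of immune cells were lower in these KO_Aged hearts by edgeR: 1 of 10 macrophage markers (Mrc1, -0.52 ± 0.12, adjusted p = 0.0309), 1 of 4 tested T and NK cell markers (Cd8a, -2.43 ± 0.49, adjusted p = 0.0164) and 3 of 4 tested neutrophil markers (S100a8, S100a9 and Csf3r, list median -1.62). Of all tested genes 1.11% passed in that comparison. The part of these markers in the levels of the members was not tested.

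**Figure D2:**
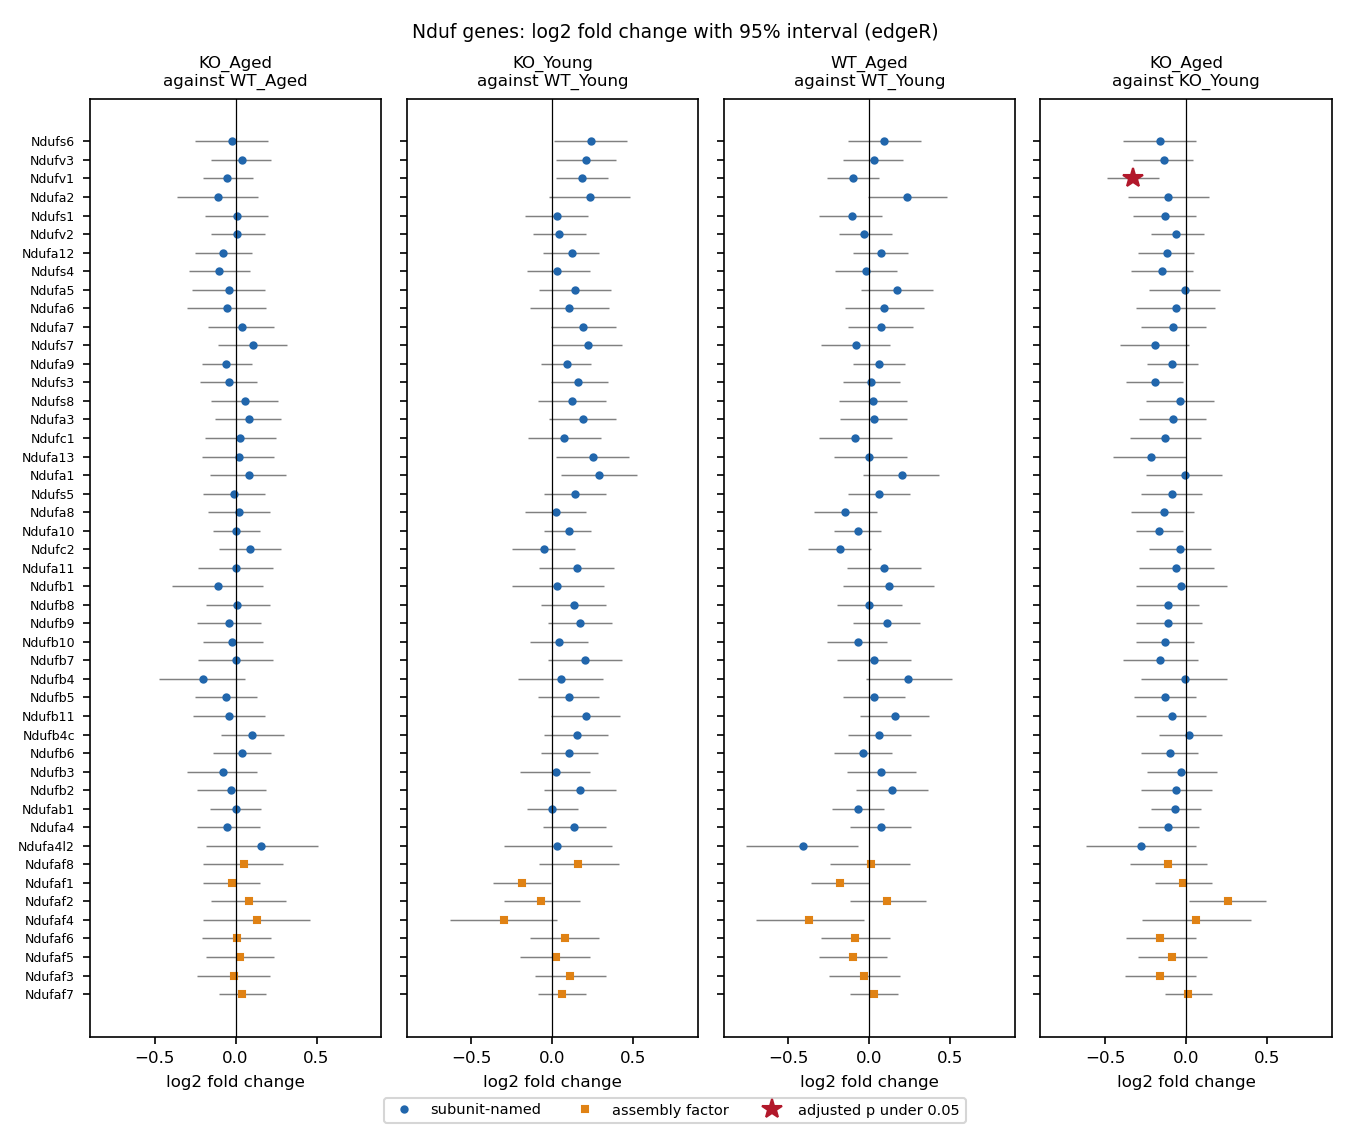
Log2 fold change (point) with its 95% interval (line) of tested members in each of the 4 comparisons, subunit-named genes as circles and assembly factors as squares. A star marks Ndufv1 in KO_Aged against KO_Young, the member that passed the test, at -0.33.

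Young knockout hearts showed small differences from young wild-type hearts, none of which passed the test. Of the subunits 0 of 40 and of the assembly factors 0 of 8 were called between KO_Young and WT_Young hearts, against 0.322% of all tested genes (edgeR, adjusted p under 0.05). At an unadjusted p under 0.05 6 subunits were higher in KO_Young (Ndufa1, Ndufa13, Ndufs6, Ndufs7, Ndufv1 and Ndufv3), beside 5.50% of all genes. The count of subunits at that limit rested on single hearts: it was 0 without WT_Young_34, 1 without KO_Young_31 or KO_Young_53, and 17 without WT_Young_29. At that limit 1 assembly factor, Ndufaf1, was lower, beside 5.65% of all genes. DESeq2 and limma on FPKM called 0 members. The log2 fold changes of 39 of 40 subunits were above 0 (51.2% of all genes), Ndufc2 being the exception, with a median of 0.13 beside 0.00 for all genes. The other genes among the shortest 10% by transcript length, 1302 genes called short genes here, had a median of 0.08 in the same comparison. The subunit median with a score of those short genes as a covariate was 0.04, with 28 of 40 above 0. Only members were left out of the short genes, and the score correlated with single subunits at up to 0.98 after removal of group means. The covariate can therefore take out differences that subunits share, and the part of transcript length was not tested. Most subunit transcripts are short: 32 of the 40 fall in that shortest 10%.

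Ndufa1, a small proximal-arm subunit, had the smallest p. It had 168, 226, 179 and 199 CPM in KO_Young hearts 27, 31, 38 and 53, against 180, 134, 160 and 158 CPM in WT_Young hearts 29, 34, 39 and 42. WT_Young_29 lay inside the knockout range, and the log2 fold change was 0.29 ± 0.11 (edgeR adjusted p = 0.342). Ndufv3, an accessory subunit of the N module, had 198, 216, 186 and 241 CPM in KO_Young hearts and 198, 164, 183 and 183 CPM in WT_Young hearts. These overlapped through WT_Young_29 too, and the log2 fold change was 0.21 ± 0.09 (adjusted p = 0.382).

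The assembly factors Ndufaf1 and Ndufaf4 were the members whose hearts did not overlap between KO_Young and WT_Young, with both lower in KO_Young, a pattern that 4.43% of all tested genes had. Ndufaf1, which acts in assembly of the membrane arm, had 64.6, 67.3, 65.3 and 68.8 CPM in KO_Young hearts and 81.4, 71.8, 76.8 and 73 CPM in WT_Young hearts. Its log2 fold change was -0.19 ± 0.08 (edgeR adjusted p = 0.419). Ndufaf4, which works with Ndufaf3 at an early stage, had 91, 87.2, 90.2 and 103.6 CPM in KO_Young hearts and 125.1, 103.9, 117.1 and 111.5 CPM in WT_Young hearts. The highest knockout heart, KO_Young_53, and the lowest wild-type heart, WT_Young_34, were nearly equal, and the log2 fold change was -0.30 ± 0.16 (adjusted p = 0.496).

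Ageing of wild-type hearts changed 21.9% of all tested genes but none of the complex I members passed. Between WT_Aged and WT_Young hearts 0 of 40 subunits and 0 of 8 assembly factors were called by edgeR at an adjusted p under 0.05. At an unadjusted p under 0.05 there were 1 subunit-named gene (Ndufa4l2) and 2 assembly factors (Ndufaf1 and Ndufaf4), all lower in aged hearts, beside 17.6% of all genes, and DESeq2 and limma called 0. The subunits had 26 log2 fold changes above 0 (48.3% of all genes) and 14 below, with a median of 0.03 beside -0.01 for all genes and 0.09 for the short genes. It was -0.03 without WT_Aged_1 and 0.09 without WT_Aged_12. The split moved with the processing: 32 were above 0 and 8 below by limma on log2(FPKM + 1) (median 0.10 beside 0.04 for all genes), and 8 above and 32 below with the short-transcript covariate (median -0.05). For 45 of 48 members the 95% interval lay within 0.5 of 0, the exceptions being Ndufa4l2, Ndufaf4 and Ndufb4. No member separated all aged from all young wild-type hearts, whereas 21.7% of all genes did.

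Ndufa4l2 had the smallest p of the members in wild-type ageing. It had 9.33, 15.9, 11.6 and 9.12 CPM in WT_Aged hearts 1, 4, 5 and 12, against 17.1, 16.3, 13.2 and 14.7 CPM in WT_Young hearts 29, 34, 39 and 42. Only WT_Aged_4 lay within the young range. The log2 fold change was -0.41 ± 0.16 (edgeR adjusted p = 0.0763). It was -0.31 without WT_Aged_1 (adjusted p = 0.205) and -0.60 ± 0.15 without WT_Aged_4 (adjusted p = 0.0089). In knockout hearts it had 13.5, 13.5, 9.82 and 14.8 CPM in KO_Aged_114, KO_Aged_115, KO_Aged_122 and KO_Aged_125 and 15.7, 16.8, 13 and 17.2 CPM in KO_Young hearts 27, 31, 38 and 53, with a log2 fold change of -0.28 ± 0.16 (adjusted p = 0.329). The interaction, which is the ageing change in KO minus that in WT hearts, was 0.13 ± 0.23 (adjusted p = 0.866).

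Ndufaf4 had 124.8, 77.5, 58.9 and 93.7 CPM in WT_Aged hearts, against 125.1, 103.9, 117.1 and 111.5 CPM in WT_Young hearts. WT_Aged_1 was almost as high as the highest young heart, and the other 3 aged hearts lay below all young ones. The log2 fold change was -0.37 ± 0.16 (edgeR adjusted p = 0.105), and single hearts moved it: it was -0.21 without WT_Aged_5 (adjusted p = 0.275) and -0.56 ± 0.13 without WT_Aged_1 (adjusted p = 0.00509). In KO_Aged hearts Ndufaf4 had 79.2, 99, 113.5 and 96.6 CPM, overlapping KO_Young hearts, with a log2 fold change of 0.06 ± 0.16 and adjusted p = 0.867. The interaction was 0.43 ± 0.22 with adjusted p = 0.462. Ndufaf1 had 79.2, 58.8, 62 and 67.5 CPM in WT_Aged hearts, of which WT_Aged_1 alone lay within the young range, and a log2 fold change of -0.18 ± 0.08 (adjusted p = 0.138). It was -0.11 without WT_Aged_4 (adjusted p = 0.399) and -0.25 ± 0.07 without WT_Aged_1 (adjusted p = 0.021). WT_Aged_1 also had the highest summed FPKM of all hearts, 747615, and the highest macrophage marker score, 1.11 on the log2 scale against 0.62 to 0.65 in the other WT_Aged hearts, and the part of these in the result was not tested.

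**Figure D3:**
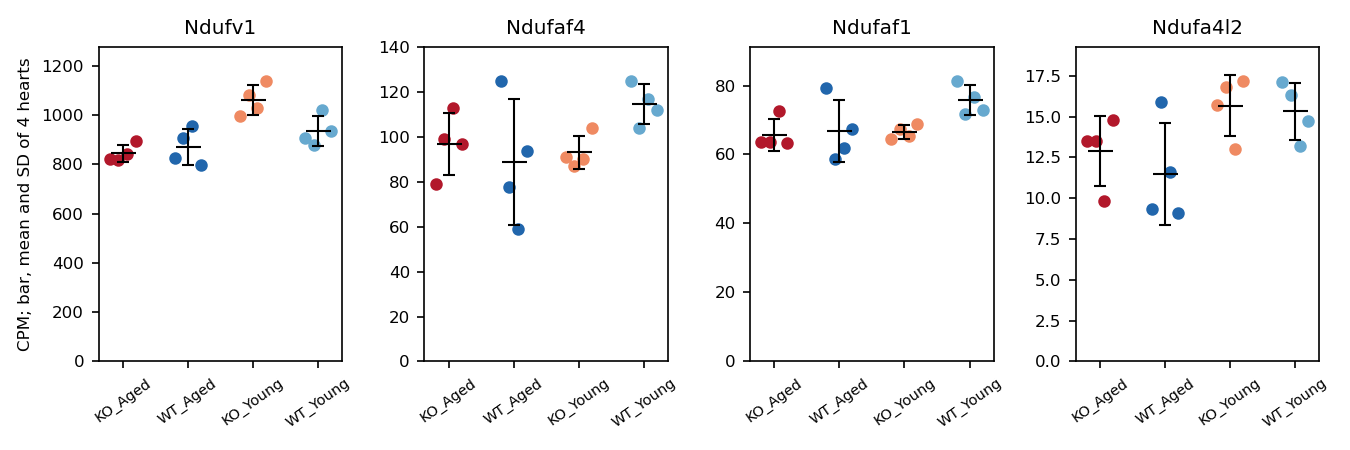
Level in CPM of Ndufv1, Ndufaf4, Ndufaf1 and Ndufa4l2 in each heart (point), with the mean and SD of the 4 hearts of each group as bars, axes starting at 0. For Ndufv1 all 4 KO_Aged hearts, at 819 to 896 CPM, lie below all 4 KO_Young hearts, at 997 to 1140 CPM.

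In knockout hearts 1 member fell with age. Ndufv1 (Entrez 17995), the core subunit of the N module that binds FMN and NADH, had 822, 819, 841 and 896 CPM in KO_Aged_114, KO_Aged_115, KO_Aged_122 and KO_Aged_125. It had 997, 1080, 1030 and 1140 CPM in KO_Young hearts 27, 31, 38 and 53. Every aged heart lay below every young one. The log2 fold change was -0.33 ± 0.08 (SE; edgeR adjusted p = 0.0114), a fold of 0.796. Its FPKM averaged 647 ± 17.2 in KO_Aged hearts and 770 ± 37 in KO_Young hearts (SD, n = 4 each). It was the only member called among 40 subunits and 8 assembly factors, where 7.67% of all tested genes were called and 2.64% were called lower. The call held when any 1 of the 8 hearts was left out, with adjusted p of 0.0158 to 0.0435, and with the short-transcript score as a covariate (-0.32 ± 0.07, adjusted p = 0.00735). Ndufv1 had a correlation of 0.20 with that score after removal of group means, so the covariate could change its estimate little.

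In wild-type hearts Ndufv1 had 825, 909, 955 and 797 CPM in WT_Aged hearts 1, 4, 5 and 12 and 909, 877, 1020 and 937 CPM in WT_Young hearts 29, 34, 39 and 42. These overlapped, and the log2 fold change was -0.10 ± 0.08 (edgeR adjusted p = 0.362). The difference between the ageing changes of the genotypes did not pass, with an interaction of -0.23 ± 0.11 and adjusted p = 0.40. Between genotypes Ndufv1 differed by -0.05 ± 0.08 in aged hearts (adjusted p = 0.899) and by 0.18 ± 0.08 in young hearts (adjusted p = 0.379). Of all tested genes 0.576% passed the interaction test, and 0 of 48 members did by edgeR, DESeq2 or limma. At an unadjusted p under 0.05 the interaction gave 1 subunit, Ndufv1, which was below 0, and 0 assembly factors, beside 6.54% of all genes below 0. The member with the next smallest interaction p was Ndufa2, an accessory subunit of the N module. It had 178, 163, 157 and 196 CPM in KO_Aged hearts, 217, 186, 195 and 151 CPM in WT_Aged hearts, 161, 200, 165 and 221 CPM in KO_Young hearts and 180, 144, 155 and 157 CPM in WT_Young hearts. The groups overlapped, and the interaction was -0.34 ± 0.17 (adjusted p = 0.42).

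The other members moved less in knockout ageing. At an unadjusted p under 0.05 the subunits Ndufa10, Ndufs3 and Ndufv1 were lower in KO_Aged hearts, beside 9.59% of all genes, and the assembly factor Ndufaf2 was higher, beside 12.3%. The count of 3 subunits was 1 without KO_Aged_115 or KO_Young_53 and 7 without KO_Young_38. Ndufa10, an accessory subunit of the proximal arm, had 678, 619, 657 and 682 CPM in KO_Aged hearts and 697, 718, 758 and 792 CPM in KO_Young hearts. The groups did not overlap, which 6.97% of all tested genes shared in that direction, and the log2 fold change was -0.17 ± 0.07 (edgeR adjusted p = 0.152). Ndufs3, a core subunit of the Q module, had 393, 370, 408 and 433 CPM in KO_Aged hearts and 408, 475, 438 and 512 CPM in KO_Young hearts, with overlap, and a log2 fold change of -0.19 ± 0.08 (adjusted p = 0.18). Ndufaf2, which is bound to a late assembly intermediate, had 20.9, 23.2, 20.9 and 20.4 CPM in KO_Aged hearts and 17.8, 18.4, 17.2 and 18 CPM in KO_Young hearts. All aged values lay above the young ones, which 8.71% of all tested genes shared, and its log2 fold change was 0.26 ± 0.11 (adjusted p = 0.18).

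Of the 40 subunits 39 had a log2 fold change below 0 in knockout ageing (51.8% of all genes), Ndufb4c being the exception, and the median was -0.11 beside -0.01 for all genes and -0.04 for the short genes. This comparison and that of the young genotypes share the KO_Young hearts, so their opposite medians are not separate observations. The split depended on the scale: by limma on log2(FPKM + 1) it was 16 above and 24 below, with a median of -0.01 beside 0.05 for all genes. Without KO_Young_53 the median was -0.06, and with the short-transcript score as a covariate it was also -0.06. The interaction median of subunits was -0.15, that of the short genes was -0.14, and with the covariate the subunit median was -0.01. By module the medians in knockout ageing were -0.14 in the N module, -0.08 in the Q module, -0.09 in the proximal arm and -0.10 in the distal arm, and the 8 assembly factors had -0.05.

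Complex I transcripts differed from heart to heart within groups, by about as much as the group means differed, and most subunits differed together. The subunit score, the mean of log2 CPM over the 40 genes after centring each over the 16 hearts, averaged -0.02 ± 0.06 in KO_Aged, -0.02 ± 0.13 in WT_Aged, 0.08 ± 0.13 in KO_Young and -0.04 ± 0.10 in WT_Young hearts (SD, n = 4 each). The highest hearts were KO_Young_53 at 0.21, KO_Young_31 at 0.18, WT_Aged_1 at 0.14 and WT_Young_29 at 0.08, and the lowest were WT_Aged_12 at -0.18 and WT_Young_34 at -0.16. In KO_Young_31 39 of the 40 subunits were above their mean over all hearts, and in WT_Young_34 it was 2 of 40. The members together took 1.56% ± 0.0391 of all counts in KO_Aged, 1.57% ± 0.127 in WT_Aged, 1.62% ± 0.11 in KO_Young and 1.49% ± 0.0954 in WT_Young hearts.

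**Figure D4:**
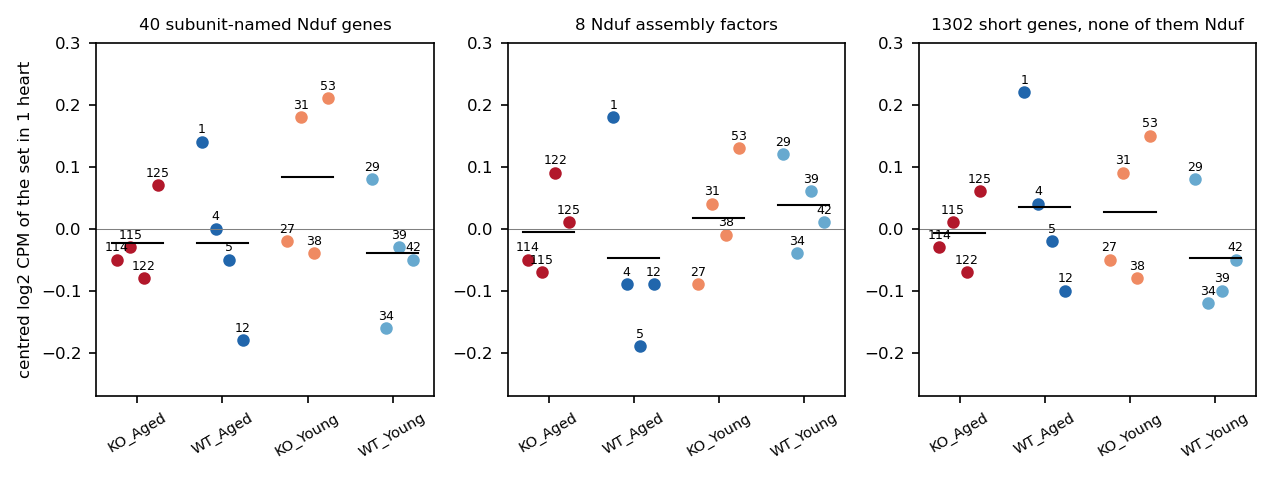
Scores by heart (points, labelled by animal number) and group mean (line) in centred log2 CPM for the 40 subunit-named genes, the 8 assembly factors and 1302 short genes that are no members. Hearts 53, 31, 1 and 29 are the highest 4 in the subunit panel and in the short-gene panel.

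The same 4 hearts that were highest for subunits were the highest 4 for the short-transcript score, which is the median centred log2 CPM of the short genes. They had 0.15 (KO_Young_53), 0.09 (KO_Young_31), 0.22 (WT_Aged_1) and 0.08 (WT_Young_29), and they also had the 4 highest sums of FPKM. The scores of complexes III, IV and V went along: they were 0.22, 0.26 and 0.21 in KO_Young_53 and -0.16, -0.23 and -0.16 in WT_Young_34. The complex II score was 0.17 and -0.05 in those hearts. RNA integrity values were not used here, and the part of transcript length, RNA quality or library preparation in these differences was not tested.

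After the group means were removed, 32 of 40 subunits (80%) had a correlation over 0.7 with the mean of the other subunits over the 16 hearts. The same held for 2 of 8 assembly factors, for 5.04% of the other 13325 tested genes and for 34.7% of the short genes. Ndufb9 of the distal arm followed the others most closely, at 0.99. Among assembly factors Ndufaf3 had 0.81, Ndufaf8 had 0.73, and the other 6 had 0.00 to 0.47. Among the subunits that followed least were Ndufv1 at 0.41, Ndufb4c at 0.40, Ndufa4l2 at 0.29, Ndufa10 at 0.07 and Ndufs1 at -0.68. Ndufs1, a core subunit of the N module that carries iron-sulfur clusters, had the longest implied length of the 40, at percentile 43.1 of all tested genes, and a correlation of -0.77 with the short-transcript score. Ndufa11, with nearly the same implied length, had 0.92. These correlations are descriptions over hearts that share the library-wide differences given above.

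**Figure D5:**
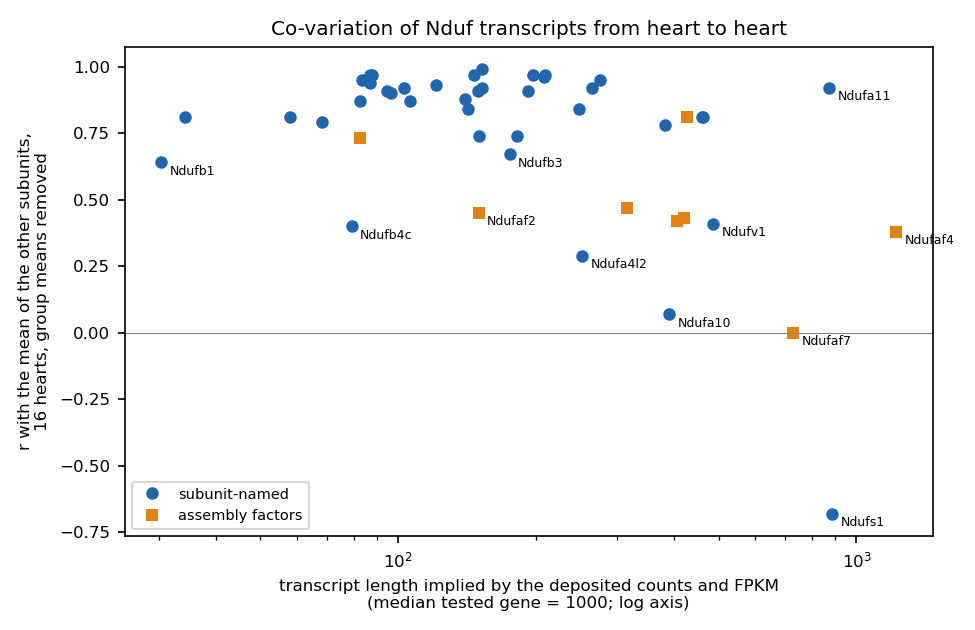
Correlation of tested members with the mean of the other subunits over 16 hearts after removal of group means (vertical axis), against the transcript length implied by the deposited counts and FPKM (log axis, median tested gene set to 1000). Most subunits lie above 0.7 at short lengths, while Ndufs1 lies at -0.68.

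Ndufs1 had 962, 903, 1010 and 953 CPM in KO_Aged hearts and 1090, 963, 1160 and 991 CPM in KO_Young hearts. In WT_Aged hearts it had 886, 865, 1050 and 1010 CPM, and in WT_Young hearts 873, 1030, 1170 and 1040 CPM. KO_Young_31 and WT_Young_29, which had high subunit scores, were the lowest for Ndufs1 in their groups. KO_Young_53 and WT_Aged_1, which had high subunit scores too, were next to lowest in theirs, at 991 and 886 CPM. The log2 fold change of Ndufs1 was -0.13 ± 0.09 in knockout ageing (edgeR adjusted p = 0.44) and -0.11 ± 0.09 in wild-type ageing (adjusted p = 0.422). Ndufa4 had 895 to 967 CPM in KO_Aged, 854 to 1120 CPM in WT_Aged, 916 to 1090 CPM in KO_Young and 820 to 1040 CPM in WT_Young hearts. Ndufa3 had 176 to 226, 174 to 218, 188 to 241 and 171 to 202 CPM in the same order of groups. Ndufaf7 had 32.2 to 38.3, 32.8 to 37, 34.2 to 36.8 and 33.1 to 35.2 CPM, and Ndufaf3 had 19.9 to 23.2, 18.3 to 24.7, 21.2 to 29.2 and 21.6 to 22.6 CPM. The groups of these 4 genes overlapped in every comparison.

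Other genes of the pathway were read from lists. Of 12 tested complex I assembly factors with other names, 2 fell and 1 rose in wild-type ageing and none passed in knockout ageing, by edgeR. That is 3 of 12 beside 21.9% of all tested genes in wild-type ageing, and 0 of 12 beside 7.67% in knockout ageing. Timmdc1, which assembles the membrane arm, fell by 0.26 ± 0.07 on the log2 scale (adjusted p = 0.0139). It had 50.4 to 55 CPM in WT_Aged hearts and 60.5 to 65.7 CPM in WT_Young hearts, without overlap. Foxred1, an oxidoreductase-like assembly factor, fell by 0.29 ± 0.09 (adjusted p = 0.0277). Its groups overlapped, with 76 to 106 CPM in WT_Aged and 101 to 117 CPM in WT_Young hearts. Nubpl, which delivers iron-sulfur clusters, rose by 0.36 ± 0.11 (adjusted p = 0.0234). In knockout ageing their log2 fold changes were -0.13 ± 0.07 for Timmdc1, -0.29 ± 0.09 for Foxred1 and -0.16 ± 0.11 for Nubpl, with adjusted p of 0.282, 0.0567 and 0.42. Their interactions did not pass (adjusted p of 0.673, 0.997 and 0.148).

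Of 10 transcriptional regulators of respiratory genes, 3 fell in wild-type ageing with a list median of -0.22 beside -0.01 for all genes, and of all 13373 tested genes 1342 fell. The regulators that fell were Perm1, a muscle regulator of oxidative metabolism, by 0.33 ± 0.09 (adjusted p = 0.011), the nuclear receptor Esrra by 0.26 ± 0.09 (adjusted p = 0.0366) and Yy1 by 0.23 ± 0.08 (adjusted p = 0.0487), all by edgeR. In knockout ageing Perm1 fell by 0.30 ± 0.09 (adjusted p = 0.0396), and the list median was -0.09. None passed between the genotypes at either age. Nrf1, whose motif was searched above, had a log2 fold change of -0.02 ± 0.10 in wild-type ageing and -0.05 ± 0.10 in knockout ageing, with adjusted p of 0.904 and 0.829.

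Among 39 tested subunits of complexes II to V, Uqcrc1, a core subunit of complex III, was the gene that passed, against 21.9% of all tested genes in wild-type ageing and 7.67% in knockout ageing. It fell by 0.29 ± 0.08 in wild-type ageing (edgeR adjusted p = 0.019) and by 0.29 ± 0.08 in knockout ageing (adjusted p = 0.0429). It had 1120 to 1320 CPM in KO_Aged and 1000 to 1230 CPM in WT_Aged hearts, against 1360 to 1640 CPM in KO_Young and 1320 to 1460 CPM in WT_Young hearts.

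Markers of cell types moved with age beside these results. For the counts below, 21.9% of all tested genes were called in either direction in wild-type ageing and 7.67% in knockout ageing. Of 10 ventricular cardiomyocyte markers 4 fell in wild-type ageing (Actc1, Ttn, Myh6 and Mybpc3; list median -0.18) and 1, Myl2, fell by 0.38 ± 0.11 in knockout ageing (list median -0.22). Macrophage markers rose in 9 of 10 cases in each, with medians of 1.36 and 0.82, and erythroid markers rose in 6 of 6 tested cases in wild-type ageing and in 0 of 6 in knockout ageing. Of 7 endothelial markers, Tie1 and Tek fell by 0.39 ± 0.11 and 0.37 ± 0.09 in knockout ageing (edgeR adjusted p of 0.029 and 0.0172) and Fabp4 rose by 0.56 ± 0.15 (adjusted p = 0.0269). In wild-type ageing Cdh5 and Tie1 of that list fell and Fabp4 rose. Of 4 tested neutrophil markers 2 rose in knockout ageing and 4 in wild-type ageing, and of 4 tested T and NK cell markers 0 and 3 did, all by edgeR. Among fibroblast markers Col1a1 (-1.23 ± 0.18) and Col1a2 (-0.66 ± 0.15) fell and Postn (1.38 ± 0.49) rose in wild-type ageing. The Postn rise rested mainly on WT_Aged_1, at 401 CPM. The other WT_Aged hearts had 47.3 to 78 CPM and WT_Young hearts 42.9 to 71.5 CPM. No fibroblast marker passed in knockout ageing, where Postn had 64.1 to 171 CPM in KO_Aged and 46.4 to 72.5 CPM in KO_Young hearts. The interactions of Col1a1, Col1a2 and Postn did not pass. No atrial marker passed in any comparison. The atrial score (mean centred log2 CPM of that list) was 1.89 and 1.21 in KO_Aged_114 and KO_Aged_115. It was -0.14 and -1.05 in the other KO_Aged hearts, and -1.15 to -0.87 in WT_Aged hearts. It ranged over -1.03 to 2.11 in KO_Young and -1.06 to 0.66 in WT_Young hearts. The part of cell composition in the change of Ndufv1 was not tested.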

How the data were processed

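Bulk RNA of 16 hearts was sequenced by BGI, per the labels. The authors deposited expected counts of each gene, of which 9.57% to 10.5% per library were not whole (tolerance 1e-09), and the deposited FPKM table holds values scaled by the authors for library size and length. The submitters' processing notes list HISAT, Bowtie2 and build GRCm39; the counting program and strand setting are not given in the sources used here. Rounded counts were filtered with filterByExpr (13373 genes kept), scaled by TMM and tested by edgeR 4.0.16 quasi-likelihood in R 4.3.3. All 16 hearts entered 1 fit of 4 groups with 12 residual degrees of freedom, and p-values were adjusted by Benjamini-Hochberg over all genes. Intervals are 95%. Scores use a prior count of 2.

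DESeq2 1.42.0, limma 3.58.1 on log2(FPKM + 1), leaving out hearts and other settings were alternatives. The pipeline was tested on simulated data. Hearts of a group differed beyond sampling noise (chi-square over its degrees of freedom at least 3.67). The members and lists were chosen with earlier results of these data known. Members given in full were those that passed, the 3 of smallest p in each comparison, the 2 highest and 2 lowest by FPKM, Ndufa4 and Ndufa4l2. Ndufaf2, Ndufs1, Ndufa11 and other members singled out for their level or co-variation were chosen after their values were seen. Promoter sequences and the motif search used the RefSeq table of build GRCm38.p6, in which 42 of the 51 members matched by Entrez gene ID. Values of 1 member are not reported here, although it is part of the counts and medians.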

Additional observations from a re-analysis of the deposited data

Results flagged for a closer look

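Within-group values of the members given in full were checked for a heart that stands apart by Dixon's ratio. Of 72 groups 2 were picked out, and chance picks about 1 in 20. Ndufs4 had 199 CPM in KO_Aged_114 and 226 to 231 CPM in the other KO_Aged hearts (ratio 0.859). Ndufaf1 had 72.7 CPM in KO_Aged_122 and 63.4 to 63.5 CPM in the other KO_Aged hearts (ratio 0.985). Neither gene passed the test in a comparison that uses these hearts.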

How the results depend on the processing

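No paired analysis was possible because the groups share no animal number. Of 150 single-gene values under the alternatives, 148 kept sign and side of the threshold, leave-one-out values apart. Of 176 counts and medians 159 stayed within their tolerance. For a median that tolerance was the SD of the subunit score within groups, which is of similar size to the medians. A median could therefore change sign and still count as kept. The wild-type ageing median did so, from 0.03 to -0.05 with the short-transcript covariate, so this count says little about the medians. Ndufv1 in knockout ageing kept its call in every setting run. The Ndufv1 difference between KO_Aged and WT_Aged (-0.05) ranged over -0.09 to 0.00 with 1 heart left out, at 0.00 without WT_Aged replicate 5.

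Genes called between KO_Aged and WT_Aged (149) numbered 261 by DESeq2, 53 by limma on log2(FPKM + 0.1), 94 on log2(FPKM + 1) without a filter, 24 in a fit of the 8 hearts alone and 50 to 258 with 1 heart left out. Between KO_Young and WT_Young (43) they numbered 148 by DESeq2, 16, 7 and 8 by limma on log2(FPKM + 1), on log2(FPKM + 0.1) and without a filter, 113 in the 8 hearts alone, 69 with the short-transcript covariate and 3 to 21 with 1 heart left out. For the interaction (77) they numbered 218 by DESeq2, 39 on log2(FPKM + 0.1), 20 without a filter, 46 with the covariate and 39 to 179 with 1 heart left out. In knockout ageing (1026) leaving out 1 heart gave 643 to 874, and in wild-type ageing (2930) 2111 to 2951. The cause was not tested.

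The short-transcript covariate and robust empirical Bayes were chosen after seeing the data. The covariate itself varied closely with most subunits, so medians with it do not measure the part of transcript length. With the covariate 4 subunit-named genes were called lower in wild-type ageing, Ndufa8 (-0.24, adjusted p = 0.0131), Ndufc2 (-0.27, adjusted p = 0.0134), Ndufc1 (-0.21, adjusted p = 0.0324) and Ndufa4l2 (-0.48, adjusted p = 0.0494), and 1 assembly factor, Ndufaf4 (-0.48, adjusted p = 0.0337). The interaction median was -0.01 with it, against -0.15. Leaving out 1 heart in wild-type ageing gave 0 to 1 subunits (Ndufc2 without WT_Aged_1, Ndufa4l2 without WT_Aged_4, Ndufa2 higher without WT_Aged_12) and 0 to 2 assembly factors (Ndufaf4 and Ndufaf1 without WT_Aged_1). With a median SE of 0.10 on the log2 scale, changes of members well under 0.5 could go uncalled.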
